A study of Mus musculus with 12 samples.

Results

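Genes that the liver uses to make plasma proteins and its own enzymes were followed in adipose tissue of mice. The set was a list of 34 genes, led by Alb (albumin), the most familiar of them. Where several probe sets name a gene, the one of highest mean signal over the 12 arrays was used, and no gene was dropped for low signal. Of the 34 genes, 31 had a probe set that carries their symbol alone, out of 18193 genes named this way. Gc, Serpina3k and Trf were not analysed here; the probe set of Trf (transferrin) also carries the symbol Srprb. The genes were then sorted into those that vary with Alb from array to array and those that are steady in the fat samples themselves.

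The study measured adipose tissue RNA of C57Bl/6 mice on single-colour Affymetrix expression arrays, 1 sample per array. The 4 chow samples came from mice kept on a standard diet with 13% of calories from fat. The other groups were mice raised on that chow to 6 weeks of age and then moved to a high-fat diet (HFD), in which fat gave 46% of calories. They stayed on it for 5 or 14 days, with 4 samples each. All animals were group housed with free access to food, and no group carried a transgene or drug. The fat depot, the sex of the mice and the age at which chow mice were sampled are not given in the sources used here. Nothing in the labels says that the 4 samples of a group came from separate animals, so p-values measure the spread between these samples, which may be technical.

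In the adult body most albumin, fibrinogen, apolipoprotein and clotting factor messages are made by hepatocytes, the main cells of the liver, under a shared set of liver-enriched transcription factors. These cells also hold the urea cycle and many cytochrome P450 enzymes. A few of the listed genes are not confined to liver: fat cells are known to make haptoglobin (Hp), and Cyp2e1 and Apoc1 are known outside hepatocytes as well.

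The samples carried the signals of fat in every array: Adipoq (adiponectin) lay between 14.90 and 15.05 and Fabp4, the fatty acid carrier of adipocytes, had a range of 0.08, all in log2 units of the deposited signal. Some arrays stood apart in genes of other tissues. Spink8, known from the epididymis, was above 12 log2 in 4 arrays (5-day arrays 1, 2 and 3 and 14-day array 4, between 14.28 and 14.96) and between 6.85 and 8.87 in the other 8. Tnnt3, a troponin of fast skeletal muscle, was above 12 log2 in 2 arrays, chow array 3 and 5-day array 2. The counts of genes that follow Alb are therefore given with and without these arrays. In bulk tissue, fewer cells of a type and less RNA per cell cannot be told apart.

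Alb set the pattern. Its log2 signal in chow arrays 1 to 4 was 10.28, 10.04, 14.31 and 12.23. In the 5-day arrays it was 11.13, 13.84, 10.99 and 14.56, and in the 14-day arrays 14.52, 10.95, 13.68 and 10.63. Each group thus held arrays near 10 to 11 and arrays near 14, and the groups overlapped over almost their whole span. The highest array was 22.9-fold above the lowest, a log2 range of 4.52, whereas the median range of all 18193 genes was 0.449.

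Of the 31 genes, 27 varied with Alb, defined as a Pearson r with Alb of at least 0.8 over the 12 arrays and a range of at least 1 log2 unit. Over all genes 152 met both conditions, or 0.835%. The 3 steady genes, defined by a range under 1, were Hp, Cyp2e1 and Ass1. Over all 18193 genes, 15733 were steady. The definition uses range alone, so a steady gene may still follow Alb. Apoc1 met neither definition. Since r and range made the sort, they are given as a description with no test, and all r values share the same 12 arrays and the same normalization. Among the 26 varying genes other than Alb, 22 had an r above 0.9. Near the limits, Itih1 was just inside at r 0.82. The next r was that of Ass1 at 0.67, which also failed the range limit at 0.40. In range, Hp at 0.81 was just inside the steady class and Apoc1 at 1.03 just outside it. Leaving out the 4 arrays with Spink8 above 12 gave 27 varying and 4 steady genes. Over all 18193 genes it gave 171 and 17193. Leaving out the 2 arrays with Tnnt3 above 12 gave 27 and 3, and over all genes 194 and 15835. These counts without arrays were added after the data were seen.

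**Figure D1:**
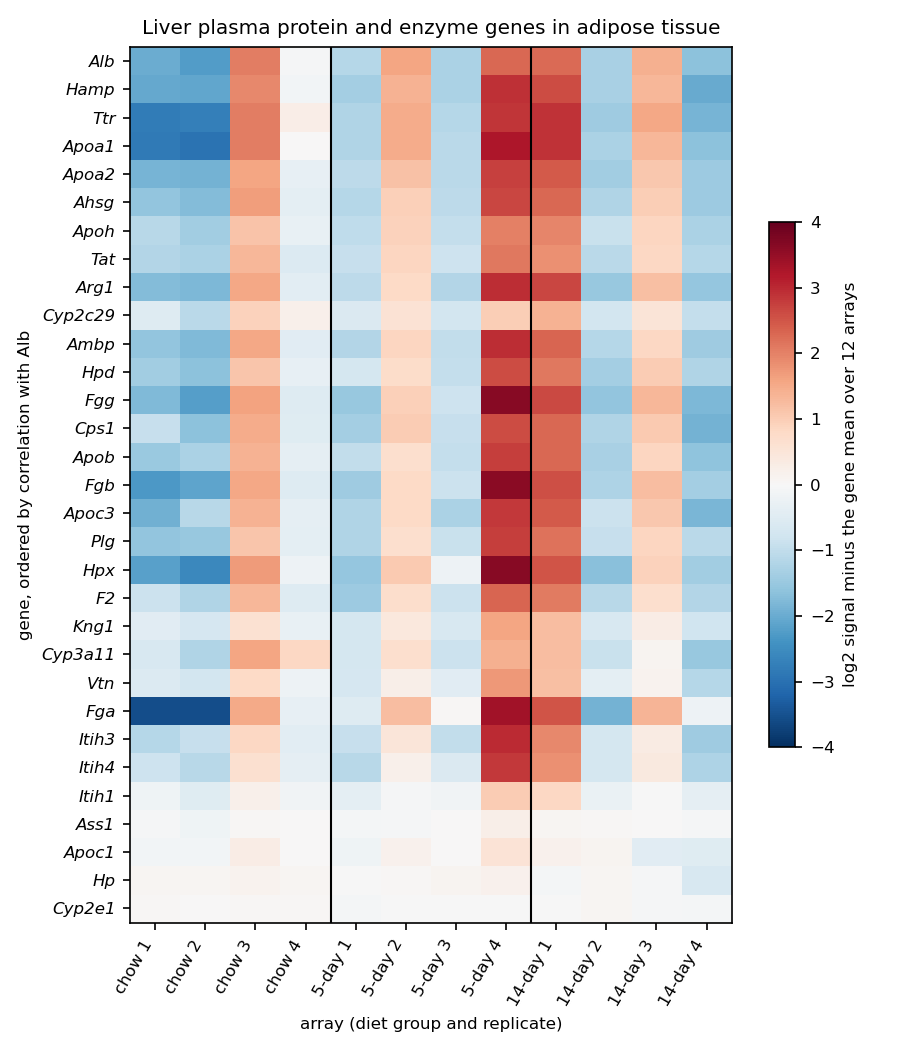
Log2 signal of each of the 31 genes (rows, ordered by correlation with Alb) minus the mean of that gene over the 12 arrays (columns, in 3 diet groups separated by black lines). The same 5 columns are red for almost all of the upper 27 rows (chow 3, 5-day 2, 5-day 4, 14-day 1 and 14-day 3), and the lowest rows, Ass1 to Cyp2e1, are nearly blank.

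**Figure D2:**
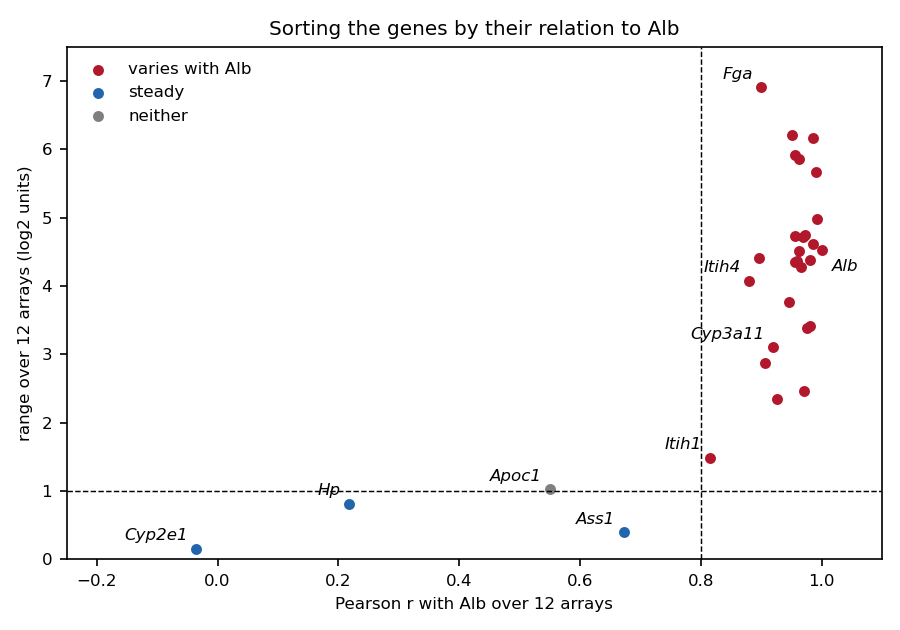
Pearson r with Alb over 12 arrays (horizontal) against the range over 12 arrays in log2 units (vertical), 1 point per gene, with dashed lines at the limits of 0.8 and 1. The 27 varying genes fill the upper right corner, with Itih1 closest to both lines, while Cyp2e1, Hp, Apoc1 and Ass1 lie at or near the bottom.

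The order of the arrays was shared. This follows in large part from the sort, which chose these genes by their r with Alb over the same arrays. For 26 of the 27 varying genes the 5 arrays of highest signal were the same 5 as for Alb, namely 5-day array 4, 14-day array 1, chow array 3, 5-day array 2 and 14-day array 3. The exception was Cyp3a11, whose 5 included chow array 4 and not 14-day array 3. Signal was highest in 5-day array 4 for 24 genes, in 14-day array 1 for Ttr and Cyp2c29, and in chow array 3 for Cyp3a11. The lowest array was chow array 2 for 14 genes, 14-day array 4 for 7, chow array 1 for 5 and 5-day array 1 for 1. The genes differed in how far they spread: ranges ran from 1.49 log2 units for Itih1 to 6.91 for Fga, with a median of 4.41.

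Promoters are shown for the genes that mark the ends of the sort, because these genes moved together or not at all across the arrays. Alb, Hamp and Apoa1 stand for varying genes of high r, and Cyp2e1 for the steady genes of high signal; Fga and Fgb were chosen after their values were seen. Each run is the 250 bases before the annotated start in RefSeq on GRCm38.p6, 5′ to 3′ on the strand of the gene. Capitals mark GTTAAT (part of the site of the liver factor HNF1), CAAAG (part of the site of HNF4) and the TATA box letters TATAAA, each searched on both strands, so a match on the opposite strand appears as its reverse complement.
Alb, chr5:90460620-90460869, plus strand: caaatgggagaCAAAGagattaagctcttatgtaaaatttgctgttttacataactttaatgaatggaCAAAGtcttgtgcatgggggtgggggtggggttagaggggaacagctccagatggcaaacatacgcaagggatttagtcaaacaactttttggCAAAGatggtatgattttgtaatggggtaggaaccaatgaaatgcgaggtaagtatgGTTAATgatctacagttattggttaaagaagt
Hamp, chr7:30944030-30944279, minus strand: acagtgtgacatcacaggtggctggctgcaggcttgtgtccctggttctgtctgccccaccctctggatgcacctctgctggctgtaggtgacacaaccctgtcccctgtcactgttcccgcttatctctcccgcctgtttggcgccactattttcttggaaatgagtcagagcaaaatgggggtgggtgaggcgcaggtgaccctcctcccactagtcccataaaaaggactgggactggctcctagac
Apoa1, chr9:46228380-46228629, plus strand: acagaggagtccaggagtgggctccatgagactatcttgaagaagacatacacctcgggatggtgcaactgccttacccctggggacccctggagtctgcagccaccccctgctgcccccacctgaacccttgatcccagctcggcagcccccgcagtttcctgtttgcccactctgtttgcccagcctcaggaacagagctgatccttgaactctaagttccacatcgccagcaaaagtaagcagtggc
Cyp2e1, chr7:140763569-140763818, plus strand: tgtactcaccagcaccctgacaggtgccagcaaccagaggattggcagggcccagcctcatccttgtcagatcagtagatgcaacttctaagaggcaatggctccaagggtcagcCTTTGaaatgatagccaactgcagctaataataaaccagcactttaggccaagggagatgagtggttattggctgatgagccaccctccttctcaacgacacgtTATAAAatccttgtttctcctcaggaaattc
Fga, chr3:83025903-83026152, plus strand: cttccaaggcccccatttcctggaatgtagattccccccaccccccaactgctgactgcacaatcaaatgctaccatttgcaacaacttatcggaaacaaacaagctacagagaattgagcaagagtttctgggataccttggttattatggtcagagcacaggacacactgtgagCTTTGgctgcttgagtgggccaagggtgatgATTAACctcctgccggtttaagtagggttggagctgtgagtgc
Fgb, chr3:83049864-83050113, minus strand: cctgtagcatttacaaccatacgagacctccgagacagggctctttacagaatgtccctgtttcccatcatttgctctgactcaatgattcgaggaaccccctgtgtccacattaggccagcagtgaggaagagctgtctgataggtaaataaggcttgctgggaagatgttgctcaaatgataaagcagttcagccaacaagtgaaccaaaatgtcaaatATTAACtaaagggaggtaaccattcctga

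The Alb window held 1 match to GTTAAT and 3 to CAAAG, Fga held 1 of each, and Fgb held 1 match to GTTAAT. The Cyp2e1 window held 1 match to CAAAG and 1 to TATAAA, and those of Hamp and Apoa1 held none of the 3. Of the 27 varying genes, 21 had an entry, with 22 windows in all. GTTAAT was found in 5 of these windows (those of Alb, Fga, Fgb, Itih1 and Vtn), CAAAG in 12 and TATAAA in 5, or 22.7%, 54.5% and 22.7%. Over all 32851 promoter windows of the same length, the shares were 6.43%, 48.6% and 12.4%. No 2 matches overlapped in the windows shown, and a match is a description of these letters only.

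Among the carriers and metal-handling genes, Alb, Ttr, Ahsg, Ambp, Hpx and Hamp all varied with Alb, with r from 0.95 to 0.99. Ttr encodes transthyretin, which carries thyroid hormone and retinol-binding protein, and its log2 signal spanned 8.19 to 13.86. Its 4 probe sets each gave an r of at least 0.976 but differed in size, with ranges from 3.26 to 6.20. Hamp encodes hepcidin, the hormone that lowers iron export. Its log2 signal was 7.26, 7.24, 11.24 and 9.21 on chow, 7.96, 10.69, 8.04 and 12.22 at 5 days, and 11.93, 8.01, 10.63 and 7.31 at 14 days. Hamp followed Alb array by array (r = 0.99, rho = 0.98, n = 12 arrays), also without the 2 arrays farthest from the median of Alb (r = 0.996). A dimmer probe set of Hamp had a range of 3.13 (r = 0.97), against 4.98 for the one used. A copy, Hamp2, lies close in sequence, so reads of Hamp by its probes are uncertain. Hpx, the heme scavenger hemopexin, had a larger range of 6.21 log2 units, from 7.30 in chow array 2 to 13.51 in 5-day array 4. Ahsg (fetuin-A, range 4.39) and Ambp (the precursor of alpha-1-microglobulin and bikunin, range 4.72) had r values of 0.98 and 0.97.

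The apolipoproteins split. Apoa1 and Apoa2, the main proteins of high-density lipoprotein, and Apob, Apoc3 and Apoh varied with Alb, with r from 0.96 to 0.99 and ranges from 3.42 to 6.16 log2 units. For Apoa1 the log2 signal was 7.76, 7.63, 12.61 and 10.58 on chow, 9.38, 12.07, 9.50 and 13.79 at 5 days, and 13.45, 9.30, 11.89 and 8.93 at 14 days. The lowest and highest array differed 71.7-fold, and the 4 probe sets of Apoa1 had r from 0.97 to 0.99. Its neighbour on chromosome 9, Apoc3, an inhibitor of lipoprotein lipase, had a range of 4.73. For Apob, the structural protein of very-low-density lipoprotein, a dimmer second probe set had a range of 0.36 and an r of 0.80, against a range of 4.36 for the one used. For Apoh, which binds phospholipids, the dimmer probe set had a range of 0.46 and an r of 0.04. The probe sets of these 2 genes therefore disagree.

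Apoc1, carried on several lipoproteins, was unlike the other apolipoproteins. Its log2 signal was 13.04, 13.03, 13.42 and 13.16 on chow, 12.95, 13.30, 13.14 and 13.68 at 5 days, and 13.30, 13.23, 12.69 and 12.66 at 14 days. The signal was high in every array and also highest in 5-day array 4, and its r with Alb was 0.55 (rho = 0.70, n = 12), or 0.33 without the 2 arrays farthest from the median of Alb. Its slope on Alb was 0.089 log2 units per unit of Alb, against a median of 0.86 for the 27 varying genes. Its neighbours on chromosome 7 that were not on the list, Apoc2 and Apoc4, met the definition of varying, with r of 0.84 and 0.93 and ranges of 2.06 and 2.10.

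The 3 fibrinogen chains, neighbours on chromosome 3 whose products join into the clotting protein, all varied with Alb but not in the same measure. Fgb had a log2 signal of 6.84, 7.03, 10.66 and 8.62 on chow, 7.70, 9.91, 8.28 and 12.75 at 5 days, and 11.71, 7.89, 10.37 and 7.77 at 14 days. Fgg had 7.60, 7.16, 10.99 and 8.86 on chow, 7.86, 10.34, 8.54 and 13.02 at 5 days, and 12.00, 7.80, 10.71 and 7.57 at 14 days. These 2 chains kept nearly the same distance in every array, with Fgg minus Fgb between -0.20 and 0.77 log2 units. Fga had 6.30, 6.31, 11.39 and 9.53 on chow, 9.33, 11.10, 9.91 and 13.21 at 5 days, and 12.37, 7.98, 11.23 and 9.65 at 14 days. Its lowest and highest array differed 120-fold, and its r with Alb was 0.90.

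The distance of Fga from Fgb moved between arrays. Levels of 2 probe sets cannot be set against each other, so only the movement of their difference is read. Fga minus Fgb was -0.54, -0.72, 0.72 and 0.91 on chow, 1.63, 1.19, 1.63 and 0.46 at 5 days, and 0.66, 0.09, 0.86 and 1.88 at 14 days. The values of chow arrays 1 and 2 rest on low signals of both chains. The 4 arrays with Spink8 above 12 log2 held the 4 highest differences, from 1.19 to 1.88, and the other 8 lay between -0.72 and 0.91. This pattern was noticed in these arrays, and the part of the epididymal transcripts in it was not tested. Each of the 27 varying genes was also set against its line on the mean of the other varying genes. For 2 of them, Fga and Cyp3a11, an array lay at least 1 log2 unit from that line. Fga was 1.64 above it in 14-day array 4 and 1.23 above in 5-day array 3. In chow arrays 1 and 2 Fga was at -1.64 and -1.43. Cyp3a11 was 1.01 above in chow array 4. By this measure the 4 arrays with Spink8 above 12 overlapped the other 8 for all 27 genes. For Fga, 5-day array 2 was at 0.14 and 14-day array 3 at 0.23.

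**Figure D3:**
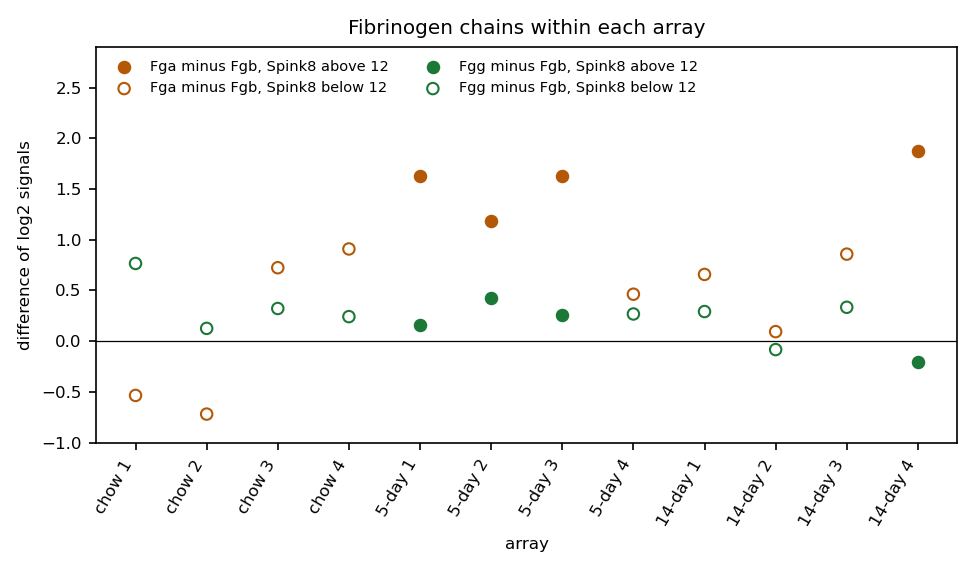
Difference of log2 signals within each of the 12 arrays, Fga minus Fgb in orange and Fgg minus Fgb in green, with filled points for the 4 arrays in which Spink8 was above 12 log2. The filled orange points lie between 1.19 and 1.88, above all open orange points, while the green points stay between -0.20 and 0.77.

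Proteases of clotting and their inhibitors varied with ranges from 1.49 to 4.41 log2 units, and a median of 3.77. F2 (prothrombin) and Plg (plasminogen, which becomes the clot-dissolving enzyme) had ranges of 3.77 and 4.35 log2 units and r of 0.95 and 0.96. Kng1 (kininogen, the source of bradykinin) and Vtn (vitronectin, an adhesive plasma protein) had ranges of 2.35 and 2.87. Each had 2 probe sets that varied with Alb, and those of Kng1 disagreed in size, since the dimmer one had a range of 4.86. The inter-alpha-trypsin inhibitor heavy chains, which bind hyaluronan, lie together on chromosome 14. Itih3 and Itih4 had ranges of 4.41 and 4.08 and r of 0.90 and 0.88. Itih1 was dim, with a mean of 7.63 log2 against the 40th percentile of probe set means at 7.64, and its range was 1.49. Without chow array 2 or without 14-day array 1, Itih1 left the varying class, which then held 26 genes.

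Enzymes of hepatocytes varied in the same arrays. Arg1, the arginase that ends the urea cycle, had a log2 signal of 6.36, 6.32, 9.66 and 7.69 on chow, 7.04, 8.91, 6.94 and 11.06 at 5 days, and 10.79, 6.60, 9.32 and 6.55 at 14 days. Cps1, the mitochondrial enzyme that starts the urea cycle, spanned 6.96 to 11.47, with r = 0.96. Tat and Hpd, successive enzymes of tyrosine breakdown, had r of 0.98 and 0.97 and ranges of 3.38 and 4.28. Of the cytochromes, Cyp2c29 had r = 0.97 and a range of 2.47.

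Cyp3a11, a main drug-metabolising cytochrome of mouse liver, kept to the pattern less closely. Its log2 signal was 7.90, 7.34, 10.12 and 9.36 on chow, 7.82, 9.22, 7.66 and 9.94 at 5 days, and 9.76, 7.65, 8.65 and 7.02 at 14 days. Chow arrays 3 and 4 stood higher in it, relative to the other arrays, than they did in Alb, and its r was 0.92 (0.98 for deviations from the diet group means). Cyp3a11 and Cyp2c29 belong to families of close copies, which their probes may not separate.

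The steady genes had signals at opposite ends of the scale. Hp, haptoglobin, the carrier of free hemoglobin, had a log2 signal of 14.81, 14.80, 14.85 and 14.80 on chow, 14.72, 14.76, 14.82 and 14.90 at 5 days, and 14.64, 14.81, 14.67 and 14.09 at 14 days. Only 14-day array 4 lay below 14.64, and r with Alb was 0.22. Cyp2e1, which oxidises ethanol and small solvents, had 15.02, 14.99, 15.03 and 15.03 on chow, 14.88, 14.95, 14.96 and 14.96 at 5 days, and 14.94, 15.04, 14.93 and 14.89 at 14 days, with a range of 0.15 and r = -0.036. Its signal was about as high in chow arrays 1 and 2, where Alb was lowest, as in chow array 3. Both genes lay near the upper end of the signal scale, which reached 15.504, and the 115 genes with a mean of at least 14 had a median range of 0.382. A change at that end of the scale may be understated.

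Ass1, the urea cycle enzyme that joins citrulline and aspartate, was steady at the bottom of the scale. Its log2 signal was 6.15, 6.05, 6.25 and 6.22 on chow, 6.13, 6.17, 6.22 and 6.45 at 5 days, and 6.29, 6.27, 6.22 and 6.18 at 14 days. The range was 0.40, with the highest value again in 5-day array 4 and an r of 0.67. The probe set is the only one with the symbol Ass1 alone; another carries Ass1 together with Gm5424 and was not used. A steady value this far below the 40th percentile says little about the level of Ass1.

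**Figure D4:**
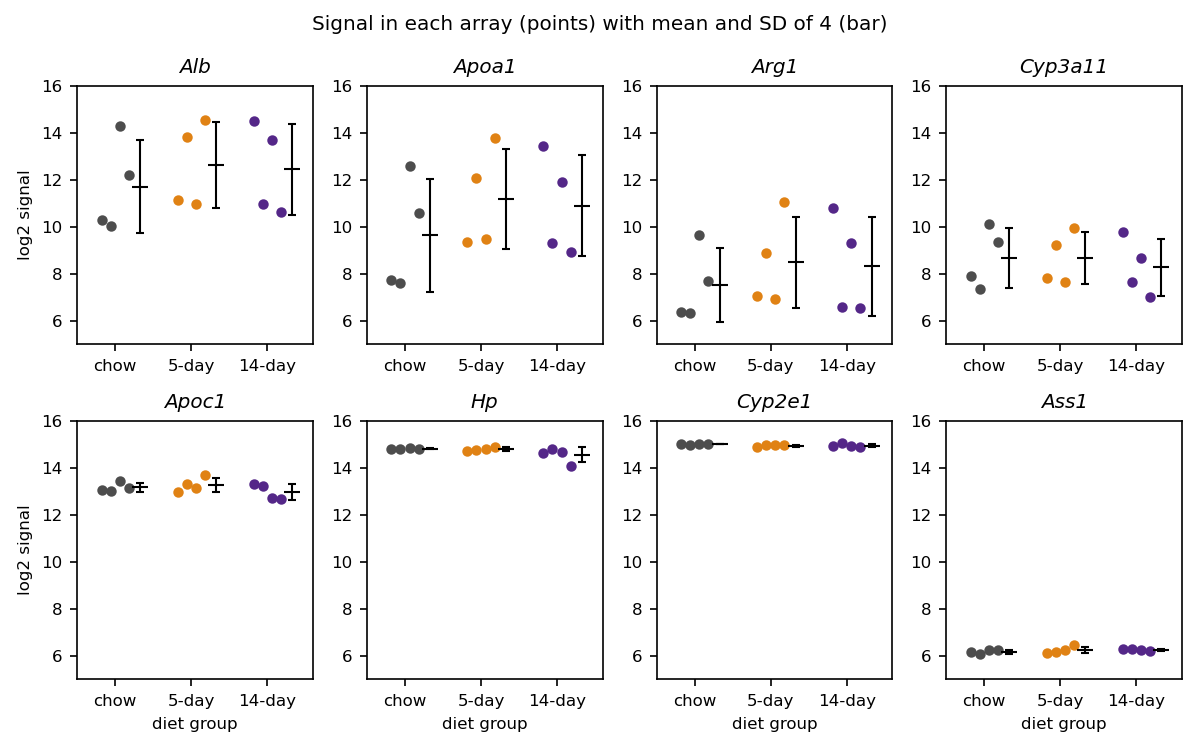
Log2 signal in each array (points, in order of replicate number) for 8 genes by diet group, with the mean and SD of 4 arrays as a bar beside each group. Alb, Apoa1, Arg1 and Cyp3a11 (upper row) spread over several log2 units within every group, whereas Apoc1 stayed between 12.66 and 13.68, Hp between 14.09 and 14.90, Cyp2e1 between 14.88 and 15.04 and Ass1 between 6.05 and 6.45.

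Genes of hepatocytes that were not on the list were sorted the same way. Of 31 other plasma protein genes, 24 varied with Alb (25 without the 4 arrays with Spink8 above 12 and 26 without the 2 with Tnnt3 above 12). Rbp4, the retinol carrier that fat also makes, was steady at a mean of 14.26 log2 with a range of 0.89, and Orm1 (orosomucoid, an acute-phase protein) met neither definition at a mean of 12.90. Hrg (histidine-rich glycoprotein) varied, with r = 0.85. Of 27 other enzyme and transporter genes, 16 varied (16 and 18 without those arrays). The 3 with the highest mean signal did not: Pck1, the gluconeogenic enzyme that adipocytes use to make glycerol, was steady (mean 14.37, range 0.41), and Fah (mean 11.72, r = 0.62), of tyrosine breakdown, and Cyp2f2 (mean 10.91, r = 0.41) met neither definition. Tat and Hpd act upstream of Fah in the same pathway, and both varied.

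Transcription factors of hepatocytes gave lower values. Of 10, 2 varied with Alb, Creb3l3 (r = 0.84, range 1.02) and Foxa3 (r = 0.84, range 1.20). Under the 40th percentile lay 7 of the 10. Among these, Nr1i3 had the highest r of the 10 (0.85) but was steady by its range of 0.87. Without the 4 arrays with Spink8 above 12, Foxa3 alone met the definition. Hnf4a, a nuclear receptor that drives many of these genes, had signals of 9.09 to 10.38 with r = 0.47, and Nr0b2, a receptor that lacks a DNA-binding domain, was steady (range 0.33). In the urea cycle list, Cps1, Arg1 and the non-member Otc (ornithine transcarbamylase, r = 0.95, range 4.22) varied, Asl (mean 10.04, range 0.93) and Slc25a13 were steady, and the ornithine carrier Slc25a15 met neither definition. Of genes known from the central zone of the liver lobule, Glul (mean 14.03, range 0.35) Oat (mean 12.76, range 0.15) and Lgr5 (range 0.55) were steady like Cyp2e1, whereas Cyp1a2 varied (r = 0.95, range 2.20). Of 4 genes known from the portal zone, 1 varied, Hal (r = 0.82), at a mean of 6.94 under the 40th percentile. Hsd17b13 (range 0.45) and Pck1 were steady, and Cyp2f2 met neither definition.

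The genes most like Alb outside the list, by Pearson r over the 12 arrays, were Serpina1c (0.994), Fabp1 (0.991), Serpina1b (0.990), Mug1 (0.985), Serpinc1 (0.984), Ugt2b5 (0.982), Mup3 (0.980), Rdh7 (0.973), Bhmt (0.968) and Akr1c6 (0.968). Serpina1 and Mup copies are close in sequence and may share signal.

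Genes that mark the other cells of the liver did not meet the definition of varying. Over all genes 0.835% met it, so a count of 0 among so few genes says little. The counts were 0 of 5 for Kupffer cells (Cd5l, Vsig4, Clec4f, Marco and Timd4), 0 of 4 for sinusoidal endothelium (Lyve1, Clec4g, Stab2 and Oit3), 0 of 4 for stellate cells (Ecm1, Reln, Hgf and Lrat) and 0 of 4 for cholangiocytes (Epcam, Krt19, Krt7 and Sox9). Cd5l came closest, with r = 0.77 and a range of 1.13. The r values ran from -0.12 to 0.77 for Kupffer cells (median 0.63) and from -0.19 to 0.61 for sinusoidal endothelium. They ran from -0.58 to 0.10 for stellate cells and from -0.44 to -0.26 for cholangiocytes. Cd5l, Clec4f (r = 0.64) and Stab2 (r = 0.61) had their 2 highest values in 5-day array 4 and 14-day array 1, as Alb did. Under the 40th percentile of signal lay 2 of the Kupffer cell genes, 2 of the endothelial genes and 1 of the stellate cell genes. A small difference may not show there, nor in bright genes such as Ecm1 (mean 11.58) and Epcam (mean 10.96). The sets for pancreas (Cela1, Prss2, Ins2, Ctrb1, Cel and Cpa1) and kidney (Aqp2, Slc34a1, Slc12a1 and Umod) were steady in full. So were 15733 of all 18193 genes. Of 5 intestinal genes (Apoa4, Vil1, Cdx1, Lct and Fabp2), Fabp2 varied, and Apoa4 reached r = 0.79; without either set of arrays that stood apart, both met the definition. The counts of 0 for the liver, pancreas and kidney sets were the same without either set of arrays.

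In the other tissue sets, 0 of 8 macrophage genes varied (Lyz2, Csf1r, C1qa, C1qb, C1qc, Mrc1, Adgre1 and Cd68). Of the adipocyte genes, 0 of 7 varied and 6 were steady (Fabp4, Adipoq, Cidec, Pnpla2, Lipe and Slc2a4, but not Lep). Over all genes, 15733 of 18193 were steady. None of the 4 mesothelial genes (Upk3b, Lrrn4, Msln and Wt1) and neither erythroid gene (Alas2 and Slc4a1) varied with Alb. The 7 skeletal muscle genes (Acta1, Ckm, Actn3, Tnnt3, Mylpf, Ttn and Myh4) had r from 0.46 to 0.59, or from 0.04 to 0.52 without chow array 3 and 5-day array 2. Acta1, skeletal muscle actin, was at 14.12 and 14.02 in those arrays and at 11.71 and 11.39 in 5-day array 4 and 14-day array 1, the highest in Alb. Myh4, a fast myosin, was at 12.62 and 12.32 in the first pair and at 8.56 and 6.39 in the second. Of the epididymal set, Spink8, Adam7 and Spink10 had r between -0.29 and -0.28, and Gpx5 was steady.

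The diet comparisons asked whether these genes differed after 5 or 14 days of HFD, and none of the 31 passed (0% of all genes did). For Alb the mean log2 signal was 11.71 ± 1.99 (SD, n = 4) on chow, 12.63 ± 1.84 at 5 days and 12.45 ± 1.94 at 14 days. The difference from chow was 0.92 ± 1.22 (SE) at 5 days (limma adjusted p = 0.866) and 0.73 ± 1.22 at 14 days (limma adjusted p = 0.913), and that of 14 against 5 days was -0.18 ± 1.22 (limma adjusted p = 0.999). The 5-day difference ran from 0.27 to 1.78 when single arrays were left out and turned to -0.17 with array weights, and that of 14 against 5 days ran from -0.87 to 0.46 and turned to 2.11. A two-sided exact permutation test, with 70 ways to label the 8 arrays of a comparison, gave p = 0.514, 0.6 and 0.686, where 0.0286 is the smallest it can give. The SD within each group was thus larger than any difference between group means. A p that misses the threshold does not show that the groups were alike.

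At 5 days, 28 of the 31 genes had a higher mean than on chow and 3 a lower one, with a median log2 difference of 0.80. At 14 days, 27 were higher and 4 lower than on chow, with a median of 0.58, and 29 of 31 were lower at 14 than at 5 days, with a median of -0.249. Over all 18193 genes the medians were -0.002, 0.010 and 0.009, and 49.2%, 53.8% and 54.6% were higher. Because 27 of the genes follow the same arrays, these directions are close to 1 observation repeated and not 31. In each of the 3 comparisons 0 of 31 genes, and 0% of all genes, had a limma adjusted p under 0.05. At an unadjusted p under 0.05 the counts were also 0 of 31 in each, against 9.63%, 6.99% and 2.44% of all genes.

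The groups failed to overlap for 1 of the 31 genes at 5 days against chow, Cyp2e1, where 9.42% of all genes did so. For 14 days against chow and 14 against 5 days it was 0 of 31, against 4.01% and 0.956%. Cyp2e1 was 0.077 ± 0.042 log2 units (SE) below chow at 5 days, with a limma adjusted p of 0.597, a small step at the top of the scale. Fga had the largest difference of the 31 genes at both times, 2.51 ± 1.31 at 5 days (limma adjusted p = 0.576) and 1.93 ± 1.31 at 14 days (limma adjusted p = 0.807). The 5-day group holds 3 of the 4 arrays with Spink8 above 12, in which Fga stood highest against Fgb. For Hp the difference at 14 days was -0.26 ± 0.12 (limma adjusted p = 0.721), and it came with the single low value of 14-day array 4. Apoc1 differed by 0.10 ± 0.19 at 5 days and -0.19 at 14 days, and Cyp3a11 by -0.016 ± 0.76 and -0.41.

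Alb read nearly equal in the 2 arrays where it was highest, 14.56 in 5-day array 4 and 14.52 in 14-day array 1. Both values lie near the upper end of the scale, where a difference may be understated. Relative to its line on the mean of the other varying genes, Alb lay at -0.75 in 5-day array 4 and -0.25 in 14-day array 1. The part of that limit in the near equality was not tested. Other genes differed between the 2 arrays. Of the 27 varying genes, 25 were higher in 5-day array 4, by a median of 0.34 log2 units, and 2 were lower, Cyp2c29 by -0.42 and Ttr by -0.012. Over all genes the median was -0.027. Differences of at least 0.8 were found for 6 varying genes, as against 206 of 18193 genes: Hpx (1.13), Itih3 (1.08), Fgb (1.04), Fgg (1.02), Itih4 (1.01) and Fga (0.85). Hpx is a heme scavenger, the fibrinogen chains form clots and the heavy chains bind hyaluronan. Hp, another member, differed by 0.26. Genes off the list differed as well: of genes picked after their values were seen, Saa1 was at 11.75 and 9.06, Myh4 differed by 2.17 and the mesothelial gene Lrrn4 by -1.12, while Orm1 differed by 0.21.

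These 2 arrays have no replicate check, and they also differed in a sign of RNA quality. The control probe sets of pyruvate carboxylase read 2.83 log2 units higher at the 3′ than at the 5′ end in 5-day array 4, against 1.59 to 2.18 in the other 11 arrays. The controls of Gapdh (0.272) and Actb (0.504) did not single it out, since 14-day array 2 had 0.276 and 0.547. Signal was highest in 5-day array 4 for 24 of the 27 varying genes. The part of RNA quality in the differences between the 2 arrays and in that order was not tested.

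**Figure D5:**
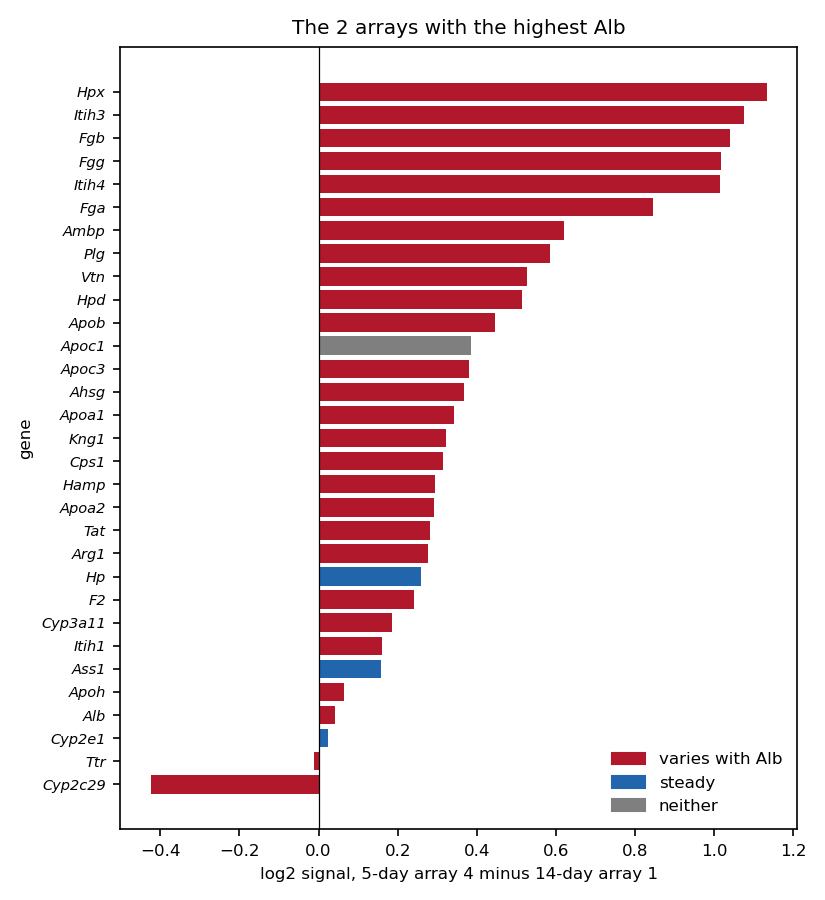
Log2 signal in 5-day array 4 minus that in 14-day array 1 for each of the 31 genes, ordered by size and coloured by class. The bars of Hpx, Itih3, Fgb, Fgg, Itih4 and Fga are at least 0.8, that of Alb is close to 0, and those of Ttr and Cyp2c29 are below 0.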

How the data were processed

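RNA of 12 adipose samples was labelled with biotin and hybridised to Affymetrix arrays, per the labels' protocols. The authors deposited 1 table of 45098 probe sets, whose values are read as log2 signals from their range (4.18 to 15.504) and their near-equal array medians (8.09 to 8.14). How probes were summarised and arrays normalized is not given in the sources used here, and nothing was renormalized. Arrays give no counts, so their number limits the precision.

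Gene names came from the annotation of the array platform. Of the probe sets, 61 were controls, 34945 carried 1 symbol, 932 several (not used) and 9160 none. By Entrez ID 34741 matched RefSeq genes of GRCm38.p6, which changed 0 symbols. Each of 18193 genes was read from its probe set of highest mean.

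All 12 arrays entered 1 limma 3.58.1 fit of group means (R 4.3.3, eBayes with trend) over all 18193 genes, two-sided, with Benjamini-Hochberg adjustment over all of them and a threshold of 0.05. The script was tested on simulated data. Descriptions used Python 3.11.15 (pandas 2.3.3, numpy 2.4.6, matplotlib 3.10.9). The members, lists and tests were chosen with earlier results of these data known. Named were all members and the 10 non-members of highest r with Alb. Also named were the 3 non-member genes of highest mean in each pathway list and all genes of the cell type lists. Exceptions were Apoc2, Apoc4, Otc, Hal, Cyp1a2, Foxa3, Nr1i3 and Saa1, and also Myh4, Lrrn4 and Orm1 between 2 arrays. These exceptions were chosen after their values were seen. Promoters were named by r and range, other than those of Fga and Fgb, chosen after their values were seen. None was taken from chromosome 18, which left out Ttr, whose r was above that of Apoa1. Alternatives were other limits of the sort, scalings, probe set rules, array weights, fewer groups, a replicate block, and leaving out arrays. Of 12 pairs of same-numbered samples, correlations of their deviations from the group means ran from -0.72 to 0.41, and 2 were over 0.1.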

Additional observations from a re-analysis of the deposited data

Results flagged for a closer look

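Cyp2e1 in 5-day array 1 lay apart from the rest of its group. Its log2 signal was 14.88 there and 14.95 to 14.96 in the other 3 arrays, so the gap to the nearest array was 0.909 of the range of the group. This was 1 of 93 groups of 4 arrays examined over the 31 genes, and chance marks about 1 group in 20. The distance is small on the log2 scale, and its cause was not tested.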

How the results depend on the processing

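The sort held 26 or 27 varying genes when single arrays were left out, with 3 to 4 steady genes. An r limit of 0.9 left 23 varying genes (without Fga, Itih1, Itih3 and Itih4), a steady limit of 0.75 left 2 steady genes (without Hp), and leaving out the 2 arrays farthest from the median of Alb gave 26 varying and 5 steady genes (Apoc1 and Itih1 added). No member passed in any diet comparison under any alternative run; the lowest adjusted p of a named member was 0.0593, for Cyp2e1 at 5 days with array weights. Array weights called 1845, 1843 and 1246 of all genes (5 days, 14 days, 14 against 5 days), against 0 without them, and fitting only the 2 groups called 126 at 5 days. Leaving out single arrays called 0 to 90 genes at 5 days (90 without 14-day array 4), 0 to 20 at 14 days (20 without 14-day array 2) and 0 to 0 for 14 against 5 days. Array weights turned the sign for Alb at 5 days (-0.17), Apoc1 at 5 days (-0.084) and Cyp3a11 at 14 days (0.38), and for 14 against 5 days for Alb (2.11), Fga (1.60), Hpx (2.09), Apoc1 (0.019) and Cyp3a11 (1.052). Leaving out single arrays gave, at 5 days, Alb 0.27 to 1.78, Hp -0.048 to 0.011, Apoc1 -0.035 to 0.21 and Cyp3a11 -0.46 to 0.46. At 14 days it gave Alb 0.043 to 1.60 and Cyp3a11 -0.91 to 0.071. For 14 against 5 days it gave Alb -0.87 to 0.46, Fga -1.27 to 0.19, Hpx -1.45 to 0.33, Cyp2e1 -0.019 to 0.030 and Cyp3a11 -0.89 to 0.033. The cause of these turns was not tested. With the replicate number as a block, 0 genes passed and Alb differed by 0.92 at 5 days (limma adjusted p = 0.90). The numbers matched best in 2 of 24 cases. The deviations compared also hold the differences in other tissues between arrays, so they cannot show whether same-numbered samples were handled together. Signals near either end of the scale limit Hp, Cyp2e1, Itih1 and Ass1. They also limit Alb where it was highest and the fibrinogen chains where they were lowest.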
